A study of Mus musculus with 18 samples.

Results

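Lipid and particle laden macrophages were described here through 9 genes: Spp1, Gpnmb, Trem2, Cd68, Ctsk, Lgals3, Fabp5, Apoe and Apoc1. Of these, 8 had a probe set annotated with their symbol alone and were measured, among 18193 genes in all, by 11 probe sets. Spp1, the gene of osteopontin, was not analysed here. For each gene the probe set with the highest mean over the arrays was taken, and any other probe set of the gene served as a check.

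The study measured RNA of lung and lung tumors of B6C3F1/N mice on Affymetrix arrays with 45101 probe sets. Mice entered inhalation of antimony trioxide, a particulate metal oxide, at an age of 5 to 6 weeks, with air concentrations of 0 and 3 as well as 10 and 30 mg/m3. Each daily exposure took 6 hours and 12 minutes, on 5 days a week, over as many as 105 weeks. The control group is lung of the vehicle control, the spontaneous group is lung tumors labelled as spontaneous, and the treated group is lung tumors of antimony-exposed mice, all from the same hybrid strain with no transgene or allele named. The exposure level, sex and age at sampling of a single sample are not given in the labels, nor is it stated that the samples of a group came from separate animals, so p-values measure only the spread between these samples.

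Each group had 6 arrays, and 15 of the 18 were used: control 1, 2, 3, 4 and 6, spontaneous 1 to 4, and treated 1 to 6. Control 5, spontaneous 5 and spontaneous 6 stood apart, with a median correlation over probe sets with the other arrays of 0.301 to 0.476, against 0.920 to 0.973 on the arrays used, and were left out. Among the arrays used, the 3' minus 5' difference of the Gapdh control probe sets was 1.84 to 2.21 in control, 1.11 to 1.40 in spontaneous and 1.09 to 1.97 in treated, so this measure of RNA and labelling quality moved with the groups; its part in the results was not tested. Levels are deposited log2 values, on which a difference of 1 is a 2-fold change, and a level is compared only between arrays, never between genes. The number of arrays limits the precision.

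Macrophages take up lipids, surfactant and inhaled particles by phagocytosis and break them down in lysosomes. When the load exceeds what they can digest, they turn into foamy or particle laden cells. The genes described here belong to that state: Trem2 is a surface receptor for lipids and apolipoproteins that signals through the adaptor Tyrobp, Apoe and Apoc1 encode apolipoproteins carried on lipoprotein particles, Fabp5 carries fatty acids inside cells, and Cd68, Gpnmb, Ctsk and Lgals3 encode proteins of the lysosome or of the response to its damage. None of them is restricted to macrophages: Fabp5, Lgals3 and Apoe are also made by epithelial and other cells. In bulk tissue, fewer cells of a type and less RNA per cell cannot be told apart.

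Both tumor groups had higher levels of Apoc1, Apoe and Fabp5 than control lung, and treated tumors also of Trem2, while Cd68, Gpnmb, Ctsk and Lgals3 did not pass in either comparison. Against control, 3 of the 8 members rose in spontaneous tumors (Apoc1, Apoe and Fabp5) and 4 rose in treated tumors (the same genes and Trem2), at a Benjamini-Hochberg adjusted p under 0.05 in limma over all genes. None fell in either comparison. Over all 18193 genes, 20.1% were called higher in spontaneous tumors and 23.8% in treated tumors, and 33.0% and 38.8% in either direction. The comparisons share the control arrays. All 8 members had a mean above control in each tumor group, with a median difference of 1.07 log2 units in spontaneous tumors and 1.27 in treated tumors, beside 0.12 and 0.089 over all genes tested.

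**Figure D1:**
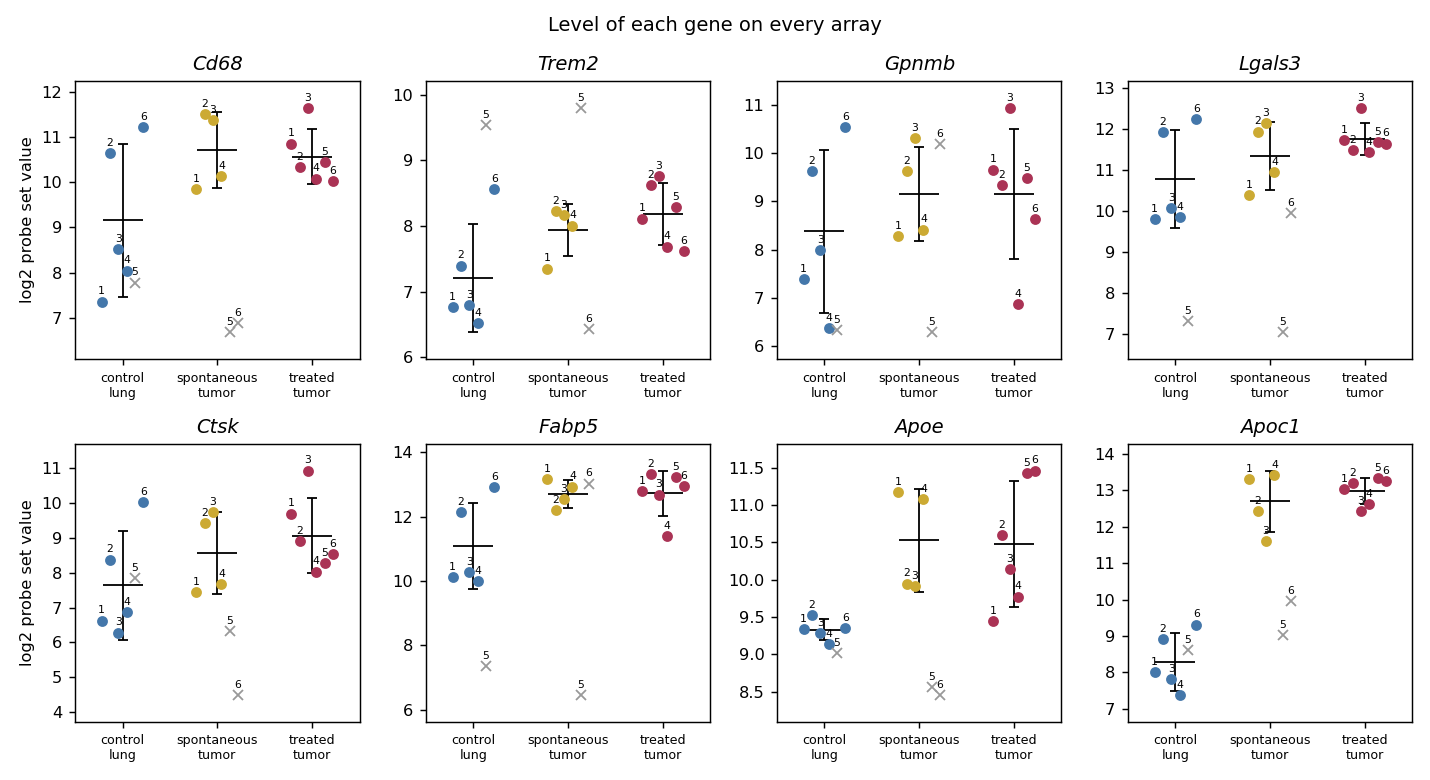
Each panel plots 1 gene, with the log2 level on the vertical axis and the arrays of the control, spontaneous and treated groups as numbered points, the mean and SD as bars and the 3 arrays left out as crosses. Apoc1 stands apart from control in both tumor groups, at 11.62 or more against 9.31 or less, while in Cd68, Gpnmb, Ctsk and Lgals3 control 2 and control 6 lie as high as many tumors.

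Apoc1, a small apolipoprotein of lipid-carrying particles that macrophages also make, had the largest difference among the members. Its level was 8.01, 8.92, 7.81, 7.38 and 9.31 on control 1, 2, 3, 4 and 6. In spontaneous 1 to 4 it was 13.31, 12.44, 11.62 and 13.43, and in treated tumors it ran from 12.44 through a median of 13.13 to 13.34. Every tumor array lay above every control array, and the 6 treated arrays lay within 1 log2 unit of each other. Over all genes, 17.8% lay wholly above control in spontaneous tumors and 14.4% in treated tumors. In spontaneous tumors Apoc1 rose by 4.42 ± 0.41 log2 units (SE, 95% interval 3.54 to 5.29), or 21.3-fold, with a limma adjusted p of 1.83e-06. In treated tumors the rise was 4.70 ± 0.37 (3.92 to 5.49), or 26.0-fold, with an adjusted p of 2.27e-07. A two-sided exact permutation test of the means gave p = 0.0159 and p = 0.00433, the smallest values that 126 and 462 assignments allow.

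Apoe, the apolipoprotein with which cells hand cholesterol to lipoprotein receptors, is the direct neighbour of Apoc1 on mouse chromosome 7. It was nearly even in control lung, at 9.33, 9.53, 9.28, 9.14 and 9.35 on control 1, 2, 3, 4 and 6. Spontaneous 1 to 4 had 11.18, 9.95, 9.91 and 11.08, and treated tumors ran from 9.44 through 10.37 to 11.46. All spontaneous tumors lay above control, as did 5 of the 6 treated tumors, with treated 1 inside the control range. Apoe rose by 1.20 ± 0.40 log2 units (SE) in spontaneous tumors, 2.30-fold with a limma adjusted p of 0.0298. In treated tumors it rose by 1.15 ± 0.36, 2.21-fold with an adjusted p of 0.0191. The exact permutation test gave p = 0.0159 and p = 0.00866. The call in spontaneous tumors was lost without control 1, 3 or 4 or spontaneous 1 or 4, with adjusted p-values up to 0.0969, while in treated tumors it held without any single array. Spontaneous 1 and 4 were the higher spontaneous tumors, and spontaneous 2 and 3 lay just above control.

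The other genes around Apoe and Apoc1 were also followed. In the order of the RefSeq gene table (assembly GRCm38.p6) they are Relb, Clptm1, Apoc2 and Apoc4 on the Apoc1 side, and Tomm40, Nectin2 and Bcam on the Apoe side. Of these 7 genes, 3 rose in spontaneous tumors and 3 in treated tumors, and none fell. Nectin2, a cell adhesion protein, rose by 2.12 ± 0.16 and 1.75 ± 0.14 log2 units (SE) in spontaneous and treated tumors, with limma adjusted p-values of 3.07e-07 and 3.06e-07. Bcam, a laminin-binding adhesion protein, rose by 1.16 ± 0.17 and 0.72 ± 0.16, with adjusted p-values of 0.000142 and 0.00204. Tomm40 passed only the spontaneous comparison (0.60 ± 0.18, adjusted p 0.0179) and Apoc4 only the treated one (0.71 ± 0.14, adjusted p 0.000759). None of the 7 came near the difference of Apoc1.

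Fabp5, a carrier that brings fatty acids to enzymes and nuclear receptors, had a wide spread in control lung. Its level was 10.11, 12.14, 10.28, 9.99 and 12.92 on control 1, 2, 3, 4 and 6. The values on spontaneous 1 to 4 were 13.18, 12.19, 12.55 and 12.93, and treated tumors ran from 11.39 (treated 4) through 12.87 to 13.32. Control 6 lay within both tumor ranges and control 2 within the treated range, while control 1, 3 and 4 lay below every tumor. Fabp5 rose by 1.62 ± 0.56 log2 units (SE), or 3.08-fold, in spontaneous tumors, with a limma adjusted p of 0.0362, and by 1.64 ± 0.50, or 3.12-fold, in treated tumors, with an adjusted p of 0.0176. The exact permutation test gave p = 0.0635 and p = 0.0433. Its second probe set had larger differences, of 3.03 in spontaneous and 2.99 in treated tumors, with adjusted p-values of 0.00794 and 0.00346 when probe sets were tested singly. The spontaneous call was lost without control 1, 3 or 4 or spontaneous 1, 3 or 4, with adjusted p-values up to 0.0931, and the treated call without control 1, 3 or 4, with adjusted p-values up to 0.0541.

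Trem2, the lipid-sensing receptor that gives this macrophage state one of its names, was at 6.76, 7.40, 6.80, 6.52 and 8.56 on control 1, 2, 3, 4 and 6. Spontaneous 1 to 4 had 7.35, 8.23, 8.17 and 8.01, and treated tumors ran from 7.62 through 8.20 to 8.76. Every treated tumor lay above 4 of the 5 control arrays, and control 6 lay above 4 of the 6 treated tumors. Trem2 rose by 0.97 ± 0.33 log2 units (SE), or 1.96-fold, in treated tumors, with a limma adjusted p of 0.0291 and an exact permutation p of 0.0476. The call was lost without control 1, 3 or 4 or treated 2 or 3, with adjusted p-values up to 0.0830. In spontaneous tumors the difference was 0.73 ± 0.37 with an adjusted p of 0.140 and did not pass. A second Trem2 probe set stayed between 4.86 and 5.77 on all 15 arrays and differed by 0.10 and -0.045 in spontaneous and treated tumors. With the mean of both probe sets the treated difference was 0.46, with an adjusted p of 0.0945.

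A list of partners of TREM2 signalling held 9 genes, all measured, among them Adam10 and Adam17. In spontaneous tumors none passed by limma after adjustment, with 2 at an unadjusted p under 0.05. In treated tumors 1 passed: Inpp5d, a phosphatase that dampens such signalling, fell by 0.53 ± 0.15 log2 units (SE, adjusted p 0.0119). Tyrobp, the adaptor that carries the Trem2 signal into the cell, had differences of 1.18 ± 0.50 and 1.06 ± 0.45, with adjusted p-values of 0.0832 and 0.0773.

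Cd68, a membrane glycoprotein of the lysosome used to stain tissue macrophages, was at 7.36, 10.64, 8.52, 8.05 and 11.22 on control 1, 2, 3, 4 and 6. The values on spontaneous 1 to 4 were 9.85, 11.50, 11.37 and 10.13, and treated tumors ran from 10.01 through 10.38 to 11.64. Control 2 and 6 lay within the range of both tumor groups, and control 1, 3 and 4 lay below every tumor. The differences were 1.56 ± 0.68 log2 units (SE) in spontaneous and 1.40 ± 0.61 in treated tumors, with limma adjusted p-values of 0.0927 and 0.0851, so Cd68 did not pass in either. It passed in both comparisons without control 2 or without control 6, with adjusted p-values down to 0.0174 and 0.0137.

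Gpnmb, a glycoprotein that lysosomal stress induces in macrophages, was at 7.39, 9.63, 8.0, 6.37 and 10.54 on control 1, 2, 3, 4 and 6. Spontaneous 1 to 4 had 8.28, 9.63, 10.30 and 8.41, and treated tumors ran from 6.88 (treated 4) through 9.41 to 10.93 (treated 3). The 3 groups overlapped over most of their range. The differences were 0.77 ± 0.84 log2 units (SE) in spontaneous and 0.77 ± 0.76 in treated tumors, with limma adjusted p-values of 0.514 and 0.460, and no single array left out brought either past the threshold. A second Gpnmb probe set lay between 4.57 and 7.33 and differed by 0.079 and 0.32.

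Ctsk, the collagen-degrading cysteine protease cathepsin K, was at 6.63, 8.38, 6.28, 6.86 and 10.04 on control 1, 2, 3, 4 and 6. The values on spontaneous 1 to 4 were 7.45, 9.42, 9.74 and 7.68, and treated tumors ran from 8.03 through 8.73 to 10.93. Control 6 lay above every spontaneous tumor and above 5 of the 6 treated tumors. The differences were 0.94 ± 0.77 log2 units (SE) and 1.43 ± 0.70, with limma adjusted p-values of 0.380 and 0.121, and did not pass. Without control 6 the treated difference passed, with an adjusted p of 0.0186.

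Lgals3, the galectin that binds sugars exposed on damaged lysosomes, was at 9.80, 11.93, 10.08, 9.87 and 12.24 on control 1, 2, 3, 4 and 6. Spontaneous 1 to 4 had 10.39, 11.95, 12.16 and 10.95, and treated tumors ran from 11.46 through 11.68 to 12.53. Control 6 lay above every spontaneous tumor, and control 2 above spontaneous 1 and 4. Control 2 and 6 lay above every treated tumor but treated 3, and control 1, 3 and 4 lay below every tumor. The differences were 0.57 ± 0.51 log2 units (SE) and 0.98 ± 0.46, with limma adjusted p-values of 0.418 and 0.110, and did not pass. The treated difference passed without control 2 or without control 6, with an adjusted p down to 0.0235.

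**Figure D2:**
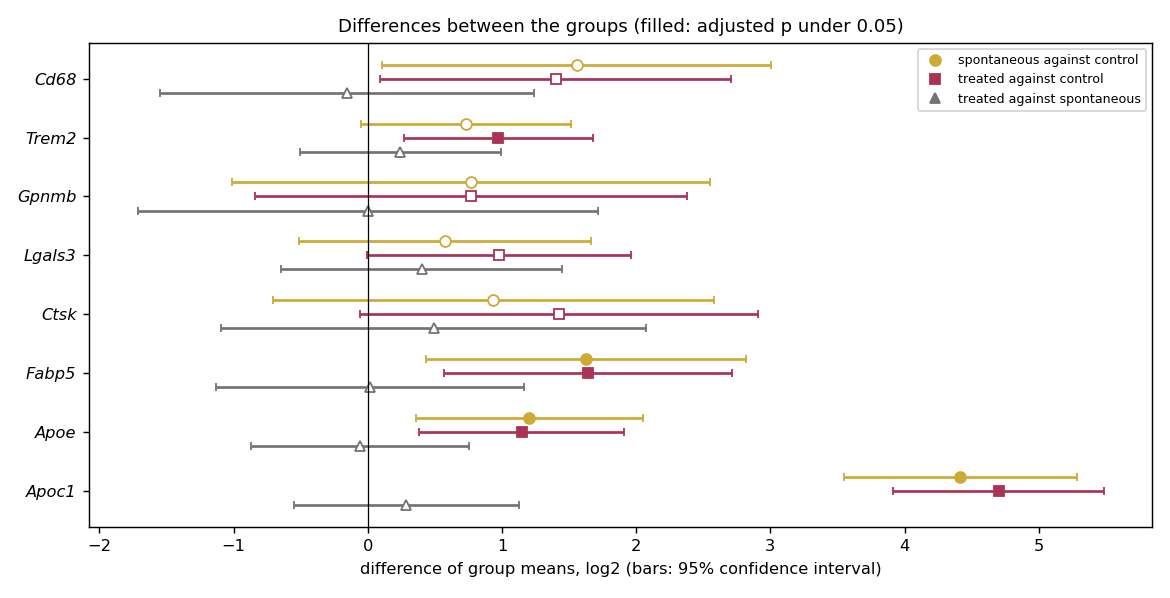
The horizontal axis gives the log2 difference from control of each of the 8 genes in spontaneous and treated tumors, and of treated from spontaneous tumors, as points with 95% intervals. Apoc1 lies at 4.42 and 4.70 from control, the other genes between 0.57 and 1.64, and every interval between the tumor groups spans 0.

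Treated and spontaneous tumors were then set against each other, the comparison that separates tumors by exposure. None of the 8 members passed in limma, none had an unadjusted p under 0.05, and none passed by the exact permutation test, whose smallest possible p is 0.00952. Over all genes 10, or 0.0550%, were called in either direction. The differences ran from -0.16 log2 units for Cd68 to 0.49 for Ctsk, with adjusted p-values from 0.860 to 1.000. These values do not show that the tumors were alike, because the 95% intervals were wide. For Apoc1 the interval ran from -0.55 to 1.12, for Apoe from -0.87 to 0.76 and for Fabp5 from -1.13 to 1.16. For Trem2 it ran from -0.51 to 0.99, and for Gpnmb, the widest, from -1.72 to 1.72.

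Control lung itself varied more in these genes than in nearly all others. From the lowest to the highest control array the level differed 18.0-fold in Gpnmb, 14.5-fold in Cd68 and 13.5-fold in Ctsk. In Fabp5, Lgals3, Trem2 and Apoc1 the span was 7.63-fold, 5.43-fold, 4.11-fold and 3.82-fold, and in each of these 7 genes control 6 was the highest. Apoe was the exception, with a span of 1.31-fold. The control SD of the 7 genes was larger than that of 97.5% to 99.8% of all genes, and that of Apoe larger than 23.9%.

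The number of members that passed depended on single arrays. In spontaneous tumors 3 members passed with all 15 arrays, 5 passed without control 6 and 1 (Apoc1) passed without control 1, 3 or 4 or without spontaneous 1 or 4. In treated tumors 4 passed with all arrays, 7 without control 6, and 2 without control 1, 3 or 4. When the 3 arrays that stood apart were kept, 1 member (Apoc1) passed in each comparison. With the mean of Y-linked genes as a covariate, Apoc1 alone passed in each comparison as well, and with the actin 3' minus 5' difference as a covariate it alone passed in spontaneous tumors. The Y-linked mean was 8.69 to 8.89 in control, 8.91 to 9.41 in spontaneous and 8.60 to 9.49 in treated. It did not split the arrays into a high and a low set, so this covariate cannot be read as an adjustment for sex. Its values moved in part with the groups. The median SE over all genes in treated tumors against control was 0.198 with this covariate and 0.153 without it. With the Y-linked covariate Fabp5 was at 1.49 and 1.45 log2 units in spontaneous and treated tumors, Apoe at 1.01 and 0.89, and Trem2 in treated tumors at 1.18. With the actin covariate, in spontaneous tumors, Fabp5 was at 1.60 and Apoe at 0.77. With only the arrays of the 2 groups compared, Fabp5 in spontaneous tumors kept its difference of 1.62 with an adjusted p of 0.0596 and did not pass. Trem2 in treated tumors, at 1.96-fold, was not called where a fold of at least 2 was also asked for. Apoc1 passed whichever array was left out, with adjusted p-values of at most 1.43e-05 in spontaneous and 1.73e-06 in treated tumors.

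Arrays high in one of the lysosomal and surface genes were high in the others. After the group means were subtracted, the 10 pairs among Cd68, Trem2, Gpnmb, Lgals3 and Ctsk had Pearson correlations of 0.82 to 0.97 over the 15 arrays, and all 10 passed a permutation test adjusted over the 28 pairs of members, by Pearson's r and by Spearman's rho. These 5 genes were singled out after their values had been seen. Cd68 and Lgals3 gave the highest value (r = 0.97, rho = 0.975, permutation adjusted p 0.00028 for r), and r was 0.90 without control 2 and 6, the arrays farthest from the median, and 0.92 among the 6 treated tumors alone. Leaving out the 2 arrays farthest from the median of the first gene of a pair left the 10 correlations at 0.70 to 0.95.

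Pairs among the lipid carriers Fabp5, Apoe and Apoc1 were looser, and these genes too were set apart after their values had been seen. Fabp5 and Apoc1 had r = 0.78 and rho = 0.80 (permutation adjusted p 0.00479 for r), and r was 0.74 without the 2 farthest arrays. Apoe and Apoc1 had r = 0.56 and rho = 0.67 (adjusted p 0.0228), and Fabp5 and Apoe r = 0.41 and rho = 0.62 (adjusted p 0.0367). Across these sets of genes, Fabp5 with Gpnmb and with Trem2 passed by Pearson's r (0.70 and 0.69, adjusted p 0.0367 each) but not by rho. Both fell, to 0.50 and 0.37, without the 2 farthest arrays. Fabp5 with Cd68, Lgals3 and Ctsk had r = 0.64, 0.60 and 0.52, higher than with Apoe, and did not pass. So Fabp5 was not set apart from the lysosomal and surface genes by its correlations. Apoc1 had r = 0.26 with Cd68 and 0.20 with Lgals3, which did not pass and became -0.71 and -0.79 without control 2 and 6. With Gpnmb, Trem2 and Ctsk Apoc1 had r = 0.24, 0.35 and 0.07, which did not pass either. Without the 2 farthest arrays of each pair these values were nearer to none, at -0.07, -0.15 and -0.21. In all, 15 of 28 pairs passed by r and 13 by rho.

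Apoe with each of the 5 lysosomal and surface genes had r between -0.39 and -0.09, and none of these 5 pairs passed. The order of the spontaneous tumors shows the pattern array by array: spontaneous 1 and 4 had the highest Apoe, Apoc1 and Fabp5 levels and the lowest Cd68, Gpnmb, Ctsk and Lgals3 levels, and spontaneous 2 and 3 the reverse. With 4 arrays this is a description with no test. In control lung, by contrast, control 2 and 6 were the 2 highest arrays in Cd68, Trem2, Gpnmb, Lgals3, Ctsk, Fabp5 and Apoc1 alike, and Apoe was nearly even.

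**Figure D3:**
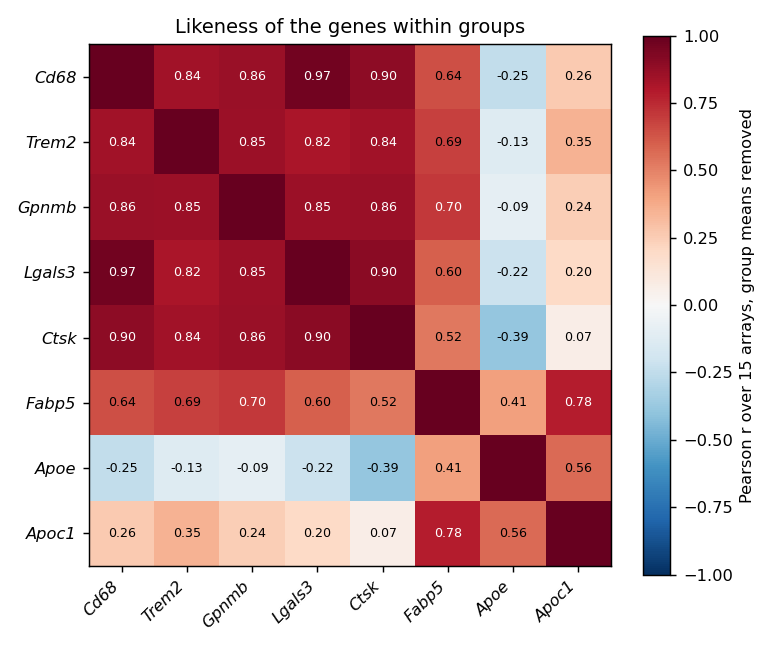
The grid gives the Pearson correlation of each pair of the 8 genes over 15 arrays after subtraction of the group means, with colour from negative to positive. The 10 pairs among Cd68, Trem2, Gpnmb, Lgals3 and Ctsk form a block at 0.82 to 0.97, and Apoe has values from -0.39 to -0.09 against that block.

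**Figure D4:**
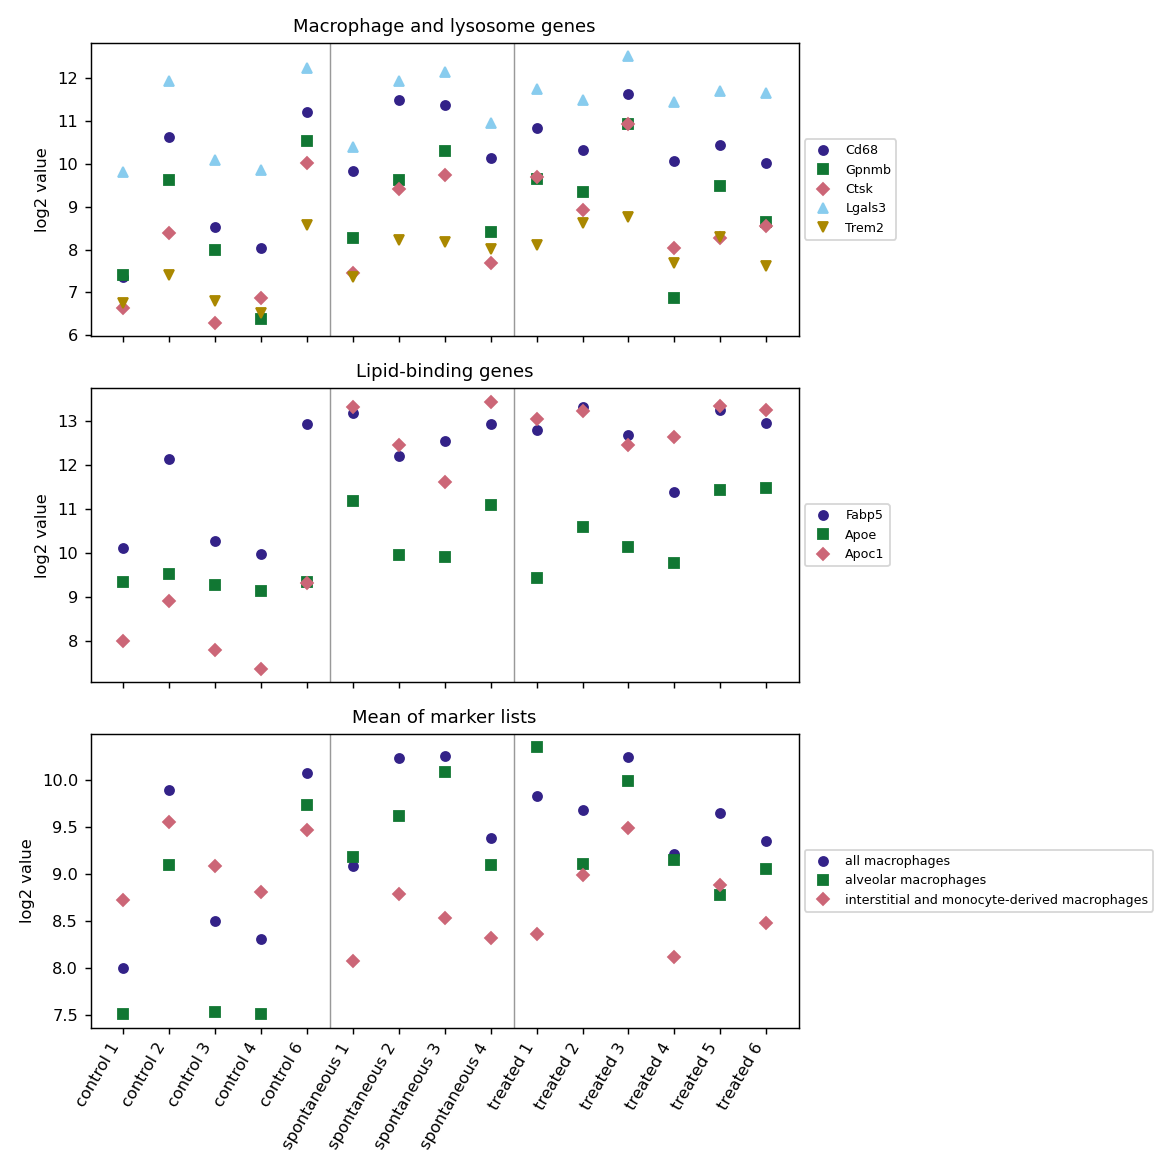
The log2 levels of Cd68, Gpnmb, Ctsk, Lgals3 and Trem2 (top), of Fabp5, Apoe and Apoc1 (middle) and the mean levels of 3 lists of macrophage markers (bottom) are plotted for the 15 arrays. Control 2 and 6 lie above the other control arrays in the top panel and in the alveolar macrophage list, at 9.10 and 9.73 against 7.51 to 7.54.

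The genes of most like pattern were taken as the 3 with the highest group-centred Pearson r to each member over the 15 arrays, with no test. For Cd68 they were Ctsa (r = 0.987), Fcgr3 (0.985) and Pld3 (0.983), for Lgals3 Fcgr3 (0.987), Ctsa (0.978) and Cyba (0.974), and for Ctsk Psap (0.961), Pik3r5 (0.957) and Gusb (0.951). Ctsa, Psap and Gusb encode lysosomal proteins, Fcgr3 an antibody receptor of phagocytes and Cyba a subunit of the phagocyte oxidase. For Gpnmb they were Lrp12 (0.942), Tnfrsf1b (0.939) and Igf1 (0.932), and for Trem2 B430306N03Rik (0.968), Lipa (0.935), the lysosomal acid lipase, and Edem1 (0.921).

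The lipid carriers had other neighbours. For Fabp5 these were Tgoln1 (0.951), Cyp4f41-ps (0.931) and Saa3 (0.912), and for Apoe Aif1l (0.923), Galntl6 (0.919) and Gstm5 (0.917). For Apoc1 they were Arhgap11a (0.879), Hsd11b2 (0.869) and Cenph (0.867), of which Cenph encodes a protein of the kinetochore, the chromosome attachment site in dividing cells.

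The 250 bases before the starts of Cd68, Trem2 and Ctsk are shown, read from RefSeq promoters of GRCm38.p6, 5′ to 3′ on the strand of the gene. These are the lysosomal and surface genes whose windows held a motif match. Gpnmb and Lgals3, which moved with them from array to array, held none and are not printed. A link between these letters and the levels was not tested. Capitals mark matches on either strand to GAGGAA, the core of the myeloid factor PU.1, and to TGANTCA. The latter is a wider form of the AP-1 site, which has G or C in the middle, and allows any base there. Windows are chr11:69666171-69666420, minus strand, for Cd68, chr17:48346151-48346400, plus strand, for Trem2 and chr3:95498960-95499209, plus strand, for Ctsk.
Cd68: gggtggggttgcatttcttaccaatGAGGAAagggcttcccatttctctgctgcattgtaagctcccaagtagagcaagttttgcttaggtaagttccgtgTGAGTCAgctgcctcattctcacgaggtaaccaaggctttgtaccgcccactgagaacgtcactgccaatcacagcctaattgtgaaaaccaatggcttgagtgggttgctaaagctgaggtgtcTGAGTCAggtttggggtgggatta
Trem2: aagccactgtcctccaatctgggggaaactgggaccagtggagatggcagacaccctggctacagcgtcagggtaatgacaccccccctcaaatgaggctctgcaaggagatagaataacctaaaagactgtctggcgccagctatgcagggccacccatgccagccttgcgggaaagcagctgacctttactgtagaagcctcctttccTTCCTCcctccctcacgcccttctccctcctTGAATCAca
Ctsk: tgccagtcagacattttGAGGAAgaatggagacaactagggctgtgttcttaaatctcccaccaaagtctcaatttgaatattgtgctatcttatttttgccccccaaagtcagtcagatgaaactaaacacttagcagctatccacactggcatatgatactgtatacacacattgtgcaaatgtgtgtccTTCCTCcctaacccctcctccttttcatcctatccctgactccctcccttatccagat

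The Cd68 window held GAGGAA starting 225 bases before the start and TGANTCA at 149 and 24 bases. The Trem2 window held GAGGAA at 40 and TGANTCA at 9 bases, and the Ctsk window GAGGAA at 233 and 58 bases. The TGANTCA matches read TGAGTCA in Cd68 but TGAATCA in Trem2, which is not the AP-1 site itself. Of all 32851 promoters in the table, 23.3% held GAGGAA and 6.75% TGANTCA in this window. The E-box letters CACGTG and CATGTG, read by the MITF and TFE family of lysosome regulators, are in 6.02% and 12.3% of promoters and in none of the windows of the 6 members the table listed. GAGGAA was also in 2 of the 3 windows listed for Apoe, at 250 and 132 bases, and the correlations of Apoe with Cd68, Trem2 and Ctsk did not pass. The windows of Gpnmb and Lgals3 held none of the 4 motifs, and no motif overlapped another in the windows printed. These matches are descriptions of letters in a window.

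The wider lysosome and lipid pathways were followed through lists of genes. Over all 18193 genes, 3662 (20.1%) were called higher and 2350 lower in spontaneous tumors, and 4330 (23.8%) and 2735 in treated tumors. The counts of every list are to be read beside these shares. Of 19 lysosomal genes measured, 3 rose and none fell in spontaneous tumors, and 5 rose and 1 fell in treated tumors. The shares that rose lay near those over all genes. The cathepsins Ctsh (1.51 ± 0.15 log2 units, SE, and 1.64 ± 0.13, limma adjusted p 3.13e-06 and 3.14e-07) and Ctsc (1.41 ± 0.19 and 1.15 ± 0.17, adjusted p 4.27e-05 and 7.65e-05) rose in both. Ctsh is also a protease of alveolar type 2 cells, where it processes surfactant proteins. Of the 4 genes of the MITF and TFE family, Mitf rose in spontaneous tumors (1.14 ± 0.41, adjusted p 0.0453) and Tfec in treated tumors (1.37 ± 0.48, adjusted p 0.0333). The other comparison was close but did not pass. Mitf had 0.90 ± 0.37 in treated tumors (limma adjusted p 0.0690) and Tfec 1.28 ± 0.53 in spontaneous tumors (adjusted p 0.0775). Between the tumor groups they differed by -0.24 and 0.10 and did not pass.

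Of 18 genes of lipid uptake, storage and efflux, 2 rose and 3 fell in each comparison. Those that fell were Pltp, which moves phospholipids between lipoproteins, Cyp27a1, which oxidizes cholesterol, and Fabp3, a relative of Fabp5. Pltp fell by 2.30 ± 0.22 log2 units (SE) in spontaneous tumors and fell by 2.48 ± 0.20 in treated tumors, with limma adjusted p-values of 2.30e-06 and 2.62e-07. Cyp27a1 fell by 1.33 ± 0.17 and fell by 1.47 ± 0.15, with adjusted p-values of 2.91e-05 and 2.91e-06. Lipa rose in both comparisons, Olr1 in spontaneous and Apoc4 in treated tumors.

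Of the fatty acid-binding protein family of 8 genes other than Fabp5, 2 rose and 1 fell in spontaneous tumors and 3 rose and 1 fell in treated tumors. Fabp1, the liver form, rose by 2.71 ± 0.63 and 2.18 ± 0.57 log2 units (SE, limma adjusted p 0.00394 and 0.00642), and Fabp3, the heart form, fell by 0.81 ± 0.16 and fell by 0.78 ± 0.14 (adjusted p 0.00112 and 0.000488). Among 7 galectin genes other than Lgals3, none passed in either comparison by limma after adjustment, with 1 at an unadjusted p under 0.05 in each.

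Of 13 measured genes that accompany the members in lipid-associated macrophages, 1 passed: Syngr1, a vesicle membrane protein, rose by 2.22 ± 0.27 and 2.55 ± 0.24 log2 units (SE, limma adjusted p 2.00e-05 and 1.26e-06). Mmp12, the macrophage elastase, had differences of 1.92 ± 0.95 and 2.13 ± 0.85, with adjusted p-values of 0.134 and 0.0607. Itgax, an integrin of alveolar macrophages and dendritic cells, had 1.59 ± 0.61 and 1.11 ± 0.55, with adjusted p-values of 0.0571 and 0.126.

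Receptors for osteopontin and apolipoprotein E moved in both directions. Of 15 measured, 4 rose and 3 fell in spontaneous tumors, and 4 rose and 4 fell in treated tumors. Cd44, a hyaluronan and osteopontin receptor, rose by 1.64 ± 0.28 and 1.23 ± 0.25 log2 units (SE), Itga9 by 1.90 ± 0.16 and 1.89 ± 0.15, and Vldlr, an apolipoprotein E receptor, by 1.09 ± 0.13 and 0.87 ± 0.12. Itga8, an integrin subunit of fibroblasts and smooth muscle, fell by 4.91 ± 0.39 and fell by 4.33 ± 0.35, and Itgb3 fell by 1.31 ± 0.27 and fell by 1.05 ± 0.24. The limma adjusted p-values of these 5 genes were at most 0.00301.

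Ctsk and Gpnmb are also genes of osteoclasts and of fused macrophages. Of 10 genes of such cells, 3 rose and 2 fell in spontaneous tumors, and 2 rose and 3 fell in treated tumors. Dcstamp, a membrane protein needed for cell fusion that alveolar macrophages also express, rose by 2.24 ± 0.33 and 1.92 ± 0.30 log2 units (SE, limma adjusted p 0.00011 and 0.000121). Acp5 also rose in each comparison, and Oscar in spontaneous tumors. Itgb3 and Nfatc1 fell in each comparison, and Calcr in treated tumors. Nfatc1 had differences of -0.65 ± 0.22 and -0.97 ± 0.20, with adjusted p-values of 0.0353 and 0.00148.

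Markers of several cell types moved beside the members. Of 14 measured markers of alveolar macrophages, 5 rose and none fell in spontaneous tumors, with a median difference of 1.35 log2 units, and 6 rose and 1 fell in treated tumors, with a median of 1.28. Siglecf, a surface lectin of alveolar macrophages, rose by 2.74 ± 0.54 and 2.25 ± 0.48 (SE, limma adjusted p 0.00121 and 0.00178), and Pparg, a lipid-sensing nuclear receptor they need, by 1.37 ± 0.26 and 1.55 ± 0.23 (adjusted p 0.000833 and 8.95e-05). The mean level of this list ran from 7.51 to 9.73 in control, with a median of 7.54, from 9.10 to 10.09 in spontaneous and from 8.77 to 10.35 in treated tumors. Control 2 and 6, the arrays high in Cd68 and Gpnmb, had 9.10 and 9.73, while the other control arrays had 7.51 to 7.54.

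Of 16 markers of macrophages in general, 2 rose in spontaneous tumors and 3 rose and 1 fell in treated tumors. The shares that rose were no larger than those over all genes. Cd14 rose by 1.97 ± 0.34 and 1.99 ± 0.31 log2 units (SE) and the lectin Clec4n by 3.54 ± 0.76 and 3.16 ± 0.68, with limma adjusted p-values of at most 0.00229. Csf1r, the receptor of the macrophage growth factor, fell by 0.77 ± 0.23 in treated tumors (adjusted p 0.0131) and had -0.64 ± 0.25 in spontaneous tumors (adjusted p 0.0617). The mean of the list was 8.0 to 10.07 in control, with control 2 and 6 at 9.90 and 10.07, 9.08 to 10.25 in spontaneous and 9.22 to 10.25 in treated tumors.

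Markers of interstitial and monocyte-derived macrophages fell more often than they rose. Of 13 measured, 2 rose and 6 fell in spontaneous tumors, and 1 rose and 5 fell in treated tumors. Cd163, a haemoglobin scavenger receptor, fell by 4.65 ± 0.73 and fell by 3.89 ± 0.66 log2 units (SE, limma adjusted p 0.000207 and 0.000275), and Lyve1, a hyaluronan receptor, fell by 2.92 ± 0.49 and fell by 2.48 ± 0.44 (adjusted p 0.000361 and 0.000426). Pf4, a chemokine of such macrophages and of platelets, rose by 1.67 ± 0.43 and 2.05 ± 0.39 (adjusted p 0.00816 and 0.000713). The mean of this list ran from 8.73 to 9.56 in control, 8.08 to 8.79 in spontaneous and 8.12 to 9.49 in treated tumors.

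Levels of markers of other cells of the tissue also differed from control. Of 11 measured alveolar type 2 cell markers, 9 rose and none fell in each comparison, and the mean of the list was 11.83 to 12.62 in control, 13.14 to 13.33 in spontaneous and 12.98 to 13.16 in treated tumors. Of 8 endothelial markers 7 fell in spontaneous and 8 in treated tumors, and of 10 fibroblast markers 4 and 5 fell and none and 2 rose. Of 8 general epithelial markers 3 and 4 rose, of 8 T and B cell markers 4 and 6 fell, and of 6 neutrophil markers 1 fell in each comparison. The part of these shifts in cell markers in the member results was not tested. In treated against spontaneous tumors no gene of any of the lists passed by limma after adjustment. The list with the most genes at an unadjusted p under 0.05 was that of the Apoe neighbours, with 4 of 7. In it 2 of the 7 genes lay above 0, and the median difference was -0.19. This list was picked as the most extreme, and its count has no share over all genes beside it, so no effect is read from it.

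**Figure D5:**
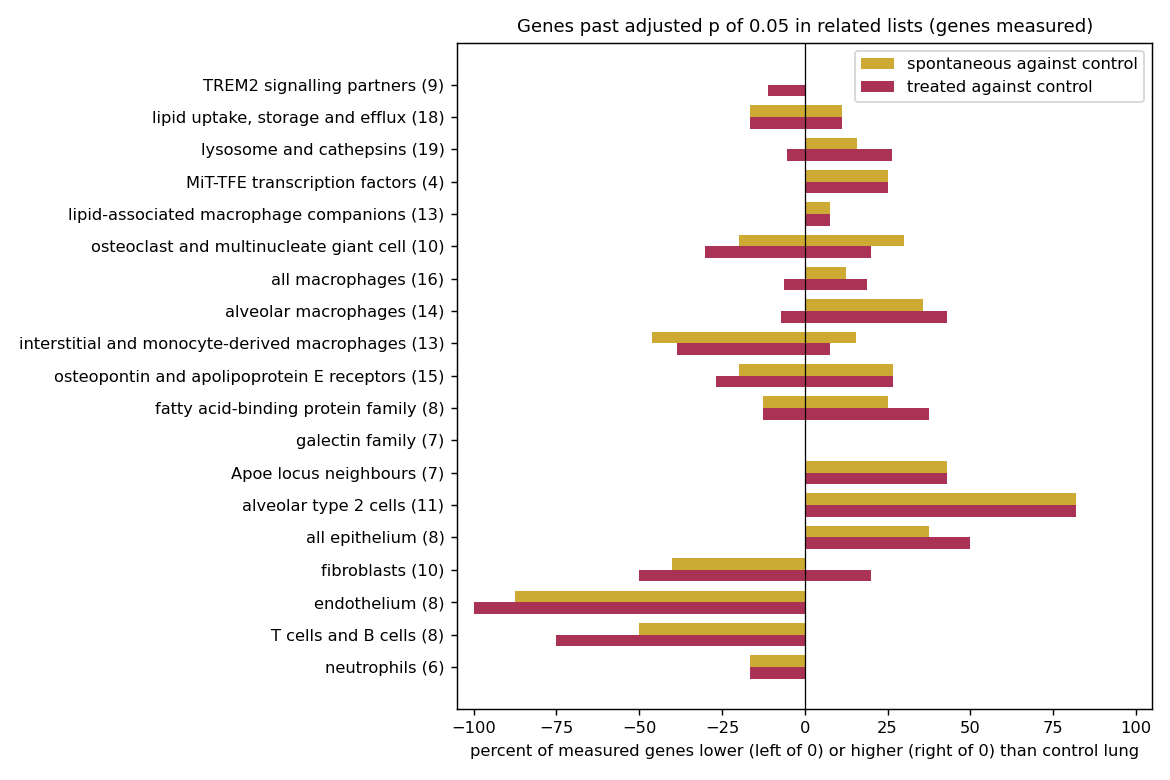
Bars give the percent of the measured genes of each list that were lower (left of 0) or higher (right of 0) than control at a limma adjusted p under 0.05, in spontaneous and treated tumors, with the number measured in brackets. Alveolar type 2 markers were higher in 9 of 11, while interstitial macrophage markers were lower in 6 of 13 and 5 of 13.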

How the data were processed

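RNA was measured on Affymetrix arrays from 100 ng per sample. The authors computed log2 values with RMA, per the submitters' processing notes, which corrects background, normalizes arrays together and summarizes probes; its version is not given in the sources used here. The deposited values were used unchanged. Members and gene lists were chosen with earlier results of these data known.

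Of 45101 probe sets, 34945 had 1 gene symbol in the platform annotation, 932 several and 9160 none, and 64 were controls. Only those with 1 symbol were used, and where a gene had several (9010 genes), that with the highest mean over the 15 arrays, which gave 18193 genes. No more than 32 values were identical between any 2 arrays. Groups were compared with limma 3.58.1 in R 4.3.3 (lmFit and eBayes, all 3 groups in 1 fit), with Benjamini-Hochberg adjustment over all genes and a threshold of 0.05; the fit was tested on simulated data. Members were also compared by two-sided exact permutation of the arrays, and pairs of members by 100000 permutations within groups. Pairs numbered 28, since 8 members were measured. The ± values are standard errors of the fit.

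All members are named. From each list up to 4 genes with the smallest p against control may be named, and any gene on which a count of 5 or fewer rests. Alternatives were all 18 arrays, a replicate block, each array left out, only the groups compared, quantile normalization, median centring, a filter on low means, means of probe sets, probe sets singly, trend and robust variances, array weights, a fold of at least 2, and covariates for actin 3' minus 5' difference and Y-linked genes.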

Additional observations from a re-analysis of the deposited data

Results flagged for a closer look

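Of 39 sets of values, each of 1 member or of the mean of 1 marker list in 1 group, that were checked for an array far from the rest, 2 had one, and chance gives about 1 in 20. Lgals3 on treated 3 was 12.5, above the 11.5 to 11.7 of the other treated tumors, a gap of 0.727 of the group's range against a limit of 0.625. Fabp5 on treated 4 was 11.4, below the 12.7 to 13.3 of the other treated tumors, a gap of 0.670 of the range. Treated 3 also had the highest Cd68, Gpnmb, Ctsk and Trem2 levels of the treated group (11.64, 10.93, 10.93 and 8.76), and treated 4 the lowest Gpnmb and Ctsk (6.88 and 8.03). The difference in Lgals3 between treated tumors and control did not pass with or without treated 3, and that in Fabp5 passed with and without treated 4.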

How the results depend on the processing

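Apoc1 passed against control under every alternative run. The 3 members called in spontaneous tumors became 1 (Apoc1) with all 18 arrays, with the actin covariate and with the Y-linked covariate, and 2 (Apoc1 and Apoe) with only the groups compared. The 4 called in treated tumors became 1 with all 18 arrays and with the Y-linked covariate, and 3 (without Trem2) with a fold of at least 2. With single arrays left out the counts ran from 1 to 5 and from 2 to 7. The cause was not tested.

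With the replicate number as a block, 3 members passed in spontaneous tumors and 2 (Apoc1 and Fabp5) in treated tumors, where Apoe had 0.96 (adjusted p 0.0576) and Trem2 0.95 (adjusted p 0.0521). It is not stated that the numbers pair the samples. Same-numbered arrays of different groups correlated at -0.149 to 0.298 in their deviations from group means, with 2 of 13 pairs over 0.1. Differently numbered arrays correlated at -0.354 to 0.369, with 14 of 61 pairs over 0.1. Such values cannot tell whether 2 samples came from the same animal.

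Directions turned only for differences that were not called, and the cause was not tested. With all 18 arrays, Ctsk was at -0.15 in spontaneous tumors against control, and treated against spontaneous tumors gave 0.30 for Gpnmb, 1.15 for Cd68 and 0.62 for Apoe. In that comparison Gpnmb was at 0.12 with means of probe sets, 0.029 with array weights and 0.16 with the Y-linked covariate. Fabp5 was at -0.36 with the replicate block, -0.0027 with median centring, -0.0099 with means of probe sets and -0.035 with the Y-linked covariate. With the actin covariate Ctsk was at -0.19 and Apoe at 0.28. Leaving out single arrays moved Gpnmb from -0.36 to 0.46, Cd68 from -0.45 to 0.11, Fabp5 from -0.16 to 0.28, Apoe from -0.26 to 0.16 and Apoc1 from -0.075 to 0.53.

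Over all genes, 3662 higher and 2350 lower calls in spontaneous tumors became 177 and 580 with all 18 arrays, and 1067 and 1354 with a fold of at least 2. In treated tumors 4330 and 2735 became 542 and 808, 1162 and 1427, and 2517 and 1827 with the Y-linked covariate. Treated against spontaneous tumors gave 6 higher and 4 lower calls, and from 0 to 18 higher and 0 to 12 lower under the alternatives, single arrays left out included.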
